A study of Arabidopsis thaliana with 12 samples.

Results

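COR27 and COR28 are a pair of cold-regulated Arabidopsis genes whose transcripts peaked near subjective dusk. They were taken from the deposited table by gene name, and they are 2 of 13264 named nuclear genes, each represented by 1 of the 22810 probe sets. COR27 (AT5G42900, probe set 249174_at) carries its symbol in the array annotation. No probe set carries the symbol COR28, and the gene was found under its locus name AT4G33980 (probe set 253322_at), so the name COR28 rests on gene nomenclature and not on the annotation. Both genes had been selected on earlier results of these same arrays, on the size and timing of their 24-h rhythm. That rhythm is therefore given here as a description, with no test.

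The study asked which Arabidopsis transcripts follow the circadian clock. Whole seedlings of the Col-0 wild type, all carrying a CCR2::LUCIFERASE reporter transgene, were grown for 7 d in 12-h light and 12-h dark cycles and then released into constant white light. Harvests began 24 h after that release and went on at 4-h steps until 68 h, and the RNA of each of these 12 harvests was put on 1 Affymetrix array. No harvest was replicated and no light/dark control was included among the 12 arrays, so every comparison was made along the time course. The limma p values measure scatter around a fitted curve, and those of the sign-flip test rest on paired differences between the cycles. Circadian time (CT) counts hours from subjective dawn, which falls on the 24 h harvest and again on the 48 h harvest. The second cycle thus runs through the 48 to 68 h harvests and the first through the 24 to 44 h harvests.

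COR27 and COR28 encode small proteins without a recognized DNA-binding domain that are induced by cold and by light. They repress evening clock genes such as TOC1 and PRR5, and they are themselves repressed by the morning clock protein CCA1. Plants lacking both have a long circadian period and altered freezing tolerance and flowering. The proteins are also targets of the COP1 ubiquitin ligase and interact with the light-signaling transcription factor HY5.

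Median intensity differed little among the arrays (149.9 to 153.6), and log2 values of any 2 arrays correlated at 0.979 to 0.992. The arrays were scanned on 3 days: the 24 h and 32 to 52 h arrays on the first, the 56 to 68 h arrays on the second and the 28 h array alone on the third. Of 11 shoot and leaf markers listed, 3 were named, and of 6 root markers, 3 were named. All 3 named shoot and leaf markers (mean intensity 4212.5 to 9976.2) and all 3 named root markers (204.7 to 10056.9) were present. None of the 8 pollen and seed markers was on a named probe set, so their absence could not be examined. All 3 shoot and leaf markers were rhythmic, and the profile of RCA, which encodes Rubisco activase, ran opposite to the mean profile of COR27 and COR28 (r = -0.89), with its lowest value at 36 h and its highest at 24 h. LHCB4.1 (r = -0.31) and LHCB4.2 (r = -0.61), genes of light-harvesting proteins, were highest at 28 h, the lowest array of the pair, while none of the 3 root markers was rhythmic (adjusted p = 0.486 to 0.870 in limma). The part of these movements in the rhythm of COR27 and COR28 was not tested. In whole seedlings, fewer cells of a type and less RNA per cell cannot be told apart.

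COR27 intensity was 65.3 at 24 h, 59.2 at 28 h, 162.8 at 32 h, 392.8 at 36 h, 219.9 at 40 h and 105.1 at 44 h of constant light. In the next cycle it was 75.4 at 48 h, 86.7 at 52 h, 201.5 at 56 h, 298.4 at 60 h, 190.4 at 64 h and 149.8 at 68 h. The transcript was low around subjective dawn and early in the subjective day, climbed before dusk, was highest at dusk in both cycles and then declined through the subjective night. Its highest value was 6.63-fold its lowest.

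COR28 intensity was 62.9 at 24 h, 50.8 at 28 h, 138.4 at 32 h, 209.2 at 36 h, 168.5 at 40 h and 95 at 44 h. It was then 62.2 at 48 h, 75.4 at 52 h, 174.3 at 56 h, 238.8 at 60 h, 173.1 at 64 h and 128.2 at 68 h. The course was that of COR27, with the same dusk maxima and the same lowest array, 28 h, but here the second maximum was the higher one. Its highest value was 4.70-fold its lowest. Both genes lay above their own mean log2 level at the same 7 harvests (32, 36, 40, 56, 60, 64 and 68 h) and below it at the other 5. Both passed the intensity filter on their mean over all arrays, although their trough values lay under the filter level of 80.1.

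**Figure D1:**
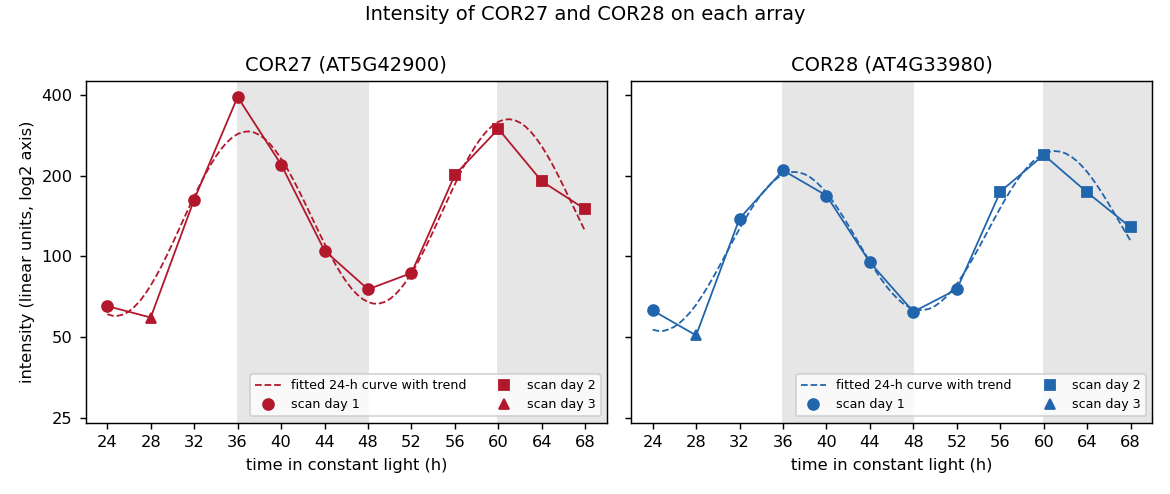
Intensity of COR27 (left) and COR28 (right) on a log2 axis against time in constant light. Points are single arrays, marked by scan day, the dashed line is the fitted 24-h curve with its trend, and gray bands are subjective night; both genes reach their highest values at 36 h and 60 h.

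The climb toward dusk was steepest between CT 4 h and CT 8 h. Over that interval COR27 increased 2.32-fold in the second cycle (52 to 56 h) and 2.75-fold in the first (28 to 32 h). COR28 increased 2.31-fold in the second cycle and 2.73-fold in the first. The last step before dusk was 1.48-fold for COR27 and 1.37-fold for COR28 in the second cycle (56 to 60 h). In the first cycle (32 to 36 h) the genes parted at that step, which was 2.41-fold for COR27 and 1.51-fold for COR28. The descent was slower than the climb: the largest 4-h decrease, from 40 to 44 h, left COR27 at 0.478 and COR28 at 0.564 of the preceding value.

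A cosine wave with a period of 24 h and a linear trend, fitted to log2 intensity, gave COR27 a log2 amplitude (mean to peak) of 1.1 (SE 0.10), which is a peak-to-trough ratio of 4.62 (95% interval 3.44 to 6.20). Its fitted peak fell at CT 12.8 h (SE 0.346 h). COR28 had a log2 amplitude of 0.92 (SE 0.07), a peak-to-trough ratio of 3.58 (2.87 to 4.46) and a peak at CT 12.9 h (SE 0.310 h). The curve left 8.17% of the log2 variance of COR27 unaccounted for and 5.70% of that of COR28. The largest departures from it were 0.46 (log2) above the curve for COR27 at 36 h and -0.38 for COR28 at 28 h, the array scanned alone. When the period was left free between 19 and 29 h, the best fits were 23.5 h for COR27 and 23.4 h for COR28. On the arrays of the first scan day alone, COR27 had a log2 amplitude of 1.15 with a peak at CT 12.7 h and COR28 an amplitude of 0.88 with a peak at CT 12.8 h. With scan day as a block in the fit the amplitudes were 1.06 for COR27 and 0.83 for COR28.

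Among 9161 tested genes, COR27 had the fourth highest log2 amplitude (rank 4) and COR28 ranked 15. Probe sets with no gene symbol (8794) or with several (503) were not tested, so these ranks do not cover every gene on the array. A 24-h rhythm was called at an adjusted p under 0.05 in 1012 of these genes, or 11.0%, and both members were among them, which follows from how they were chosen. Of the rhythmic genes, 135 (13.3%) peaked between CT 12 h and CT 16 h. COR27 and COR28 ranked 1 and 2 by amplitude in that window, where the median log2 amplitude was 0.23. The ranks within the window depend on where it opens. AT4G32340 peaked just before CT 12 h with a log2 amplitude of 1.1, level with COR27 after rounding and above COR28. CCL (1.0, peak at CT 11.3 h) also exceeded COR28, and AT4G30650 (0.88, peak at CT 11.9 h) came close to it. Besides COR28, 30 other rhythmic genes peaked within 0.5 h of COR27.

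**Figure D2:**
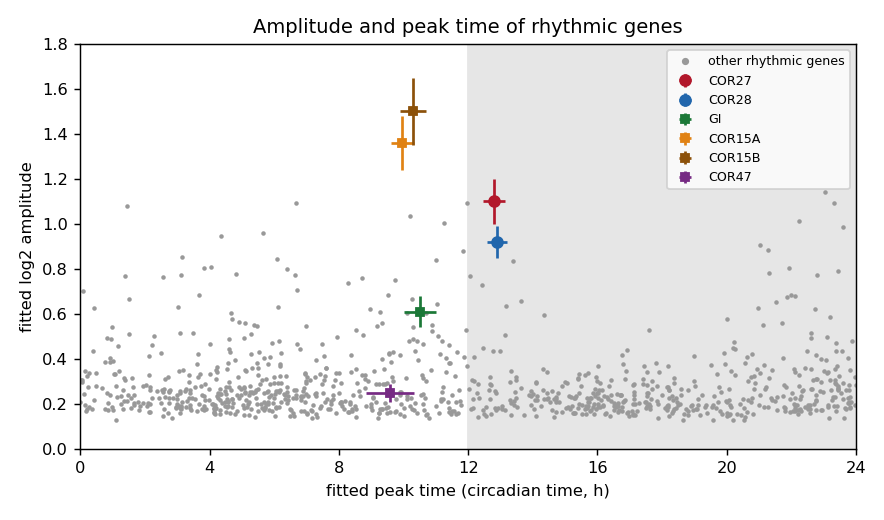
Fitted log2 amplitude against fitted peak time (h of circadian time) for the 1012 rhythmic genes, gray dots. Colored symbols with standard errors mark COR27, COR28, the clock gene GI and the cold-response genes COR15A, COR15B and COR47; the shaded band is subjective night, and COR27 (1.1) and COR28 (0.92) stand highest between CT 12 h and CT 16 h.

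Whether the rhythm held its level and size in continuing constant light was asked next. The change of level between cycles had not been used to select the genes, whereas a rhythm alike in both cycles favored their selection. At the same circadian times, second-cycle COR27 intensity was 1.16 times the first-cycle value at CT 0 h, 1.46 times at CT 4 h, 1.24 times at CT 8 h, 0.760 times at CT 12 h, 0.866 times at CT 16 h and 1.42 times at CT 20 h. Its second cycle was thus higher on both flanks and in the trough but lower at dusk and just after. The mean log2 difference was 0.16 (SD 0.39, second minus first), with 4 of 6 times higher (exact two-sided sign-flip permutation test, p = 0.344). That mean was 0.08 without CT 4 h, 0.09 without CT 20 h, 0.24 without CT 16 h and 0.27 without CT 12 h. For COR28 the second-over-first ratios were 0.989, 1.49, 1.26, 1.14, 1.03 and 1.35 at the same times in order. COR28 was therefore higher in the second cycle at 5 of 6 times, with a mean log2 difference of 0.26 (SD 0.23, exact p = 0.0625), where 0.0312 is the smallest p that 6 pairs allow. The second-cycle CT 4 h value of both genes was set against the 28 h array, and 4 of the 6 second-cycle arrays were scanned on another day than most of the first. The part of scan day in these differences was not tested by this comparison.

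**Figure D3:**
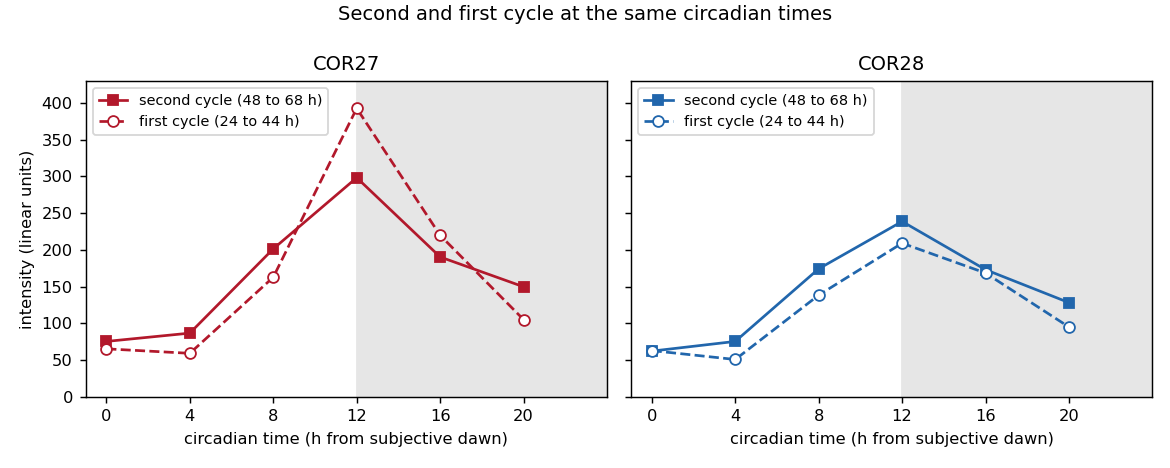
Intensity of COR27 (left) and COR28 (right) against circadian time, with the second cycle as filled squares and the first as open circles, 1 array per point; the gray band is subjective night. At CT 12 h COR27 stands at 298.4 in the second cycle and 392.8 in the first, while COR28 stands at 238.8 in the second and 209.2 in the first.

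A change of level over the days was also tested as a linear trend within the fitted curve. COR28 changed by 0.26 log2 units per day (SE 0.10) and COR27 by 0.15 (SE 0.13), and in limma neither passed the adjusted threshold (adjusted p = 0.270 for COR28 and 0.626 for COR27). Trends passed in 2 of 9161 genes, or 0.0218%, although 1204 genes had an unadjusted p under 0.05. COR28 was among those 1204 and COR27 was not (unadjusted p = 0.0171 and 0.256 in limma). The COR27 trend was 0.04 without the 68 h array, 0.08 without the 28 h array, 0.23 without the 64 h array and 0.28 without the 36 h array. With scan day entered as a block the COR28 trend was -0.02 (adjusted p = 0.994).

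Fitted separately by cycle, COR27 had a log2 amplitude of 0.94 (SE 0.12) in the second cycle and 1.33 (SE 0.12) in the first, and COR28 had 0.95 (SE 0.11) in the second and 1.02 (SE 0.11) in the first. The peak of COR27 lay at CT 12.8 h (SE 0.479 h) in the second cycle and CT 13.1 h (SE 0.339 h) in the first. That of COR28 lay at CT 12.9 h (SE 0.428 h) in the second and CT 13.3 h (SE 0.398 h) in the first. Neither gene's change of rhythm between cycles passed in limma (adjusted p = 0.611 for COR27 and 0.93 for COR28). Both genes were selected on a rhythm spanning both cycles, so these results are not independent of that choice. The COR27 amplitude difference, -0.39 (second minus first), was -0.22 without the 36 h array and -0.25 without the 64 h array. Such a change was called in 4 genes, or 0.0437%, with 877 at an unadjusted p under 0.05.

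The shape of the wave was examined with an added 12-h component, which measures how far a daily profile departs from a single smooth wave. It had a log2 amplitude of 0.23 (SE 0.08) in COR27 and 0.19 (SE 0.05) in COR28, less than the 24-h amplitude of either gene. Neither was called in limma (adjusted p = 0.998 for both), and the share called over all tested genes was 0%, that is 0 of 9161, with 363 at an unadjusted p under 0.05. Both members were among those 363 (unadjusted p = 0.0388 for COR27 and 0.0167 for COR28 in limma).

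The profiles of COR28 and COR27 were nearly superimposable when each was expressed relative to its own mean. They correlated at r = 0.976 over the 12 times, points that share arrays and seedlings. Part of this likeness follows from the selection of both genes on the size and timing of their rhythm. COR28 differed from COR27 by between -0.11 and 0.22 on the log2 scale at 11 of the 12 times. The exception was 36 h, when COR28 stood 0.84 and COR27 1.47 above its own mean, a difference of -0.63. At the second dusk, 60 h, the values were 1.03 for COR28 and 1.08 for COR27.

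**Figure D4:**
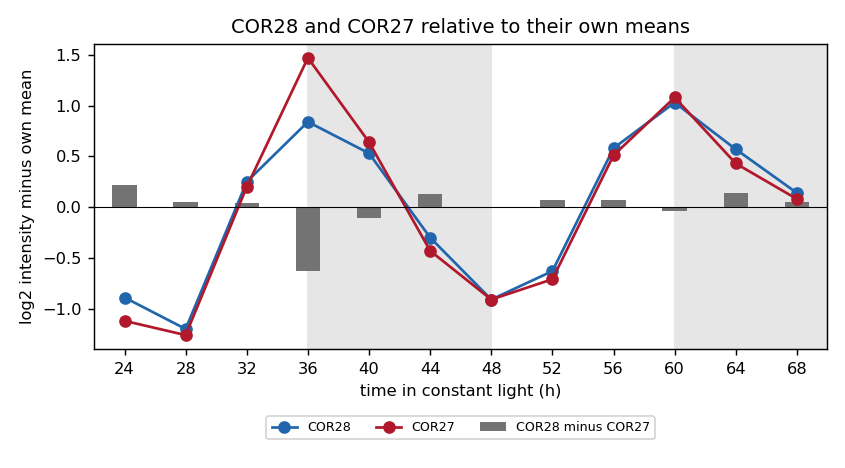
Log2 intensity of COR28 and COR27 minus each gene's own mean (lines) and the difference COR28 minus COR27 (bars) against time in constant light, with subjective night in gray. The single bar that stands out, -0.63, is at 36 h.

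The fitted peak of COR28 came 0.0262 h after that of COR27 (95% interval -0.525 to 0.578 h). A difference in peak time of more than about 0.578 h in either direction thus lay outside the interval, while smaller ones could not be told from 0. Both genes were selected on the timing and size of their rhythm, so this closeness follows in part from that choice and no test is made. In log2 amplitude, COR28 minus COR27 was -0.19 (SE 0.07, 95% interval -0.34 to -0.03). This difference rested largely on the array at 36 h, without which it was -0.06 (-0.15 to 0.03). Without the 24 h array it was -0.16 (-0.32 to 0.00).

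The genes whose courses most resembled the mean of the standardized COR27 and COR28 profiles were sought among all tested genes. For COR28 the most similar gene was COR27, and for COR27 the gene COR28 ranked 2 of 9160. Selection of the pair on timing bears on both ranks. Only 24 genes (0.262%) correlated with the pair above 0.9 and 33 below -0.9, against a median absolute correlation of 0.299. The 10 most similar were AT4G19390 (r = 0.979), AT4G16146 (0.970), CHL (0.970), MAP1C (0.968), AT1G21680 (0.966), AT4G34950 (0.962), AT5G62720 (0.960), SCPL49 (0.951), AT5G02860 (0.951) and AT4G01130 (0.949). CHL encodes the chloroplastic lipocalin, MAP1C a methionine aminopeptidase and SCPL49 a serine carboxypeptidase-like protein. All 10 had fitted peaks between CT 12.0 h (AT1G21680) and CT 13.6 h (CHL). Every one of them had a lower log2 amplitude than COR27 or COR28, from 0.26 (AT5G02860) to 0.84 (AT4G34950). That follows from the choice of the pair, which ranked 1 and 2 by amplitude among rhythmic genes peaking between CT 12 h and CT 16 h.

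CHL showed the likeness closely. Its intensity was 372.2, 285.7, 582.8, 807.4, 733.8 and 536.5 from 24 to 44 h and 351.9, 365.8, 602.3, 797.6, 701.9 and 512.0 from 48 to 68 h. As in the COR genes, the 28 h array was the lowest and dusk the highest, but the span between them was narrower and the level after dusk stayed closer to the maximum. The 28 h array was the one scanned alone, and the part of scan day in this shared minimum was not tested. Without that array, 7 of the 10 most similar genes stayed among the 10. AT4G34950, which had the widest swing of the 10, ran from 267.2 at 48 h to 980.5 at 36 h. AT4G19390, the closest in shape, moved only between 191.6 at 28 h and 329.5 at 36 h.

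The 5 genes running most nearly opposite were AT5G50100 (r = -0.974), AT3G01060 (-0.960), AT1G77280 (-0.937), AT3G27050 (-0.932) and AT1G55960 (-0.931). Their peaks fell shortly after subjective dawn, between CT 0.194 h (AT3G27050) and CT 1.51 h (AT1G55960). AT5G50100 was lowest at 60 h (143.9) and highest at 48 h (310.1), and AT1G55960 was lowest at 36 h (212.5) and highest at 24 h (687.6). Where COR27 and COR28 were near their minimum, these transcripts were near their maximum.

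**Figure D5:**
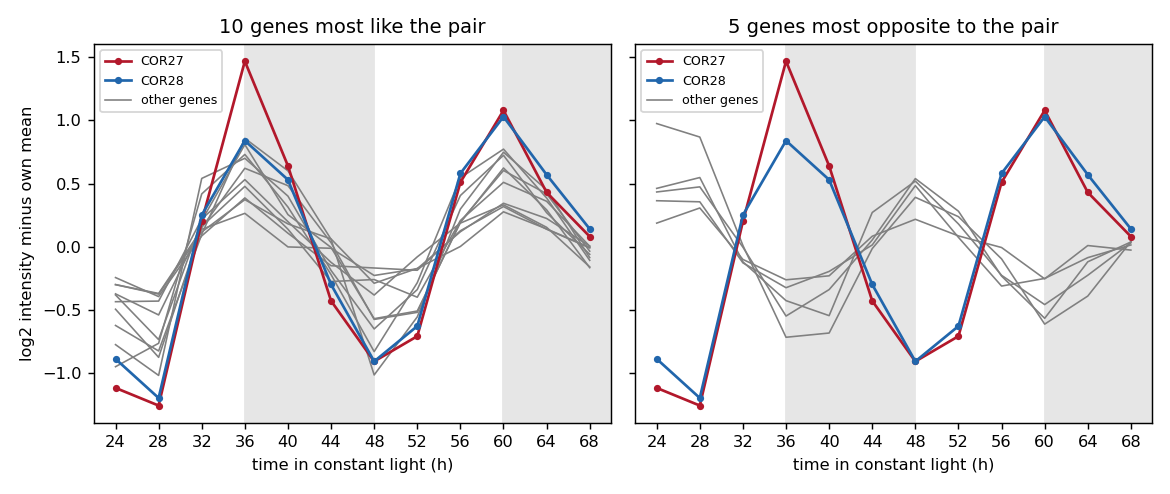
Log2 intensity minus each gene's own mean against time in constant light for COR27 and COR28 with the 10 most similar genes (left) and the 5 most opposite genes (right), all in gray, with subjective night shaded. The 10 similar genes are high around 36 h and 60 h like the pair, with smaller swings, and the 5 opposite genes are high when the pair is low.

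COR27 and COR28 are named for their response to cold, and other genes of that response were examined alongside. Of 24 cold-response genes listed, 5 were on a named probe set and tested, and 4 of these were rhythmic in limma, where 11.0% of all tested genes were. The list was chosen with earlier results of these data known, so this share is a description and not a test of cold-response genes as a group. The chloroplast-targeted cryoprotective proteins encoded by COR15A and COR15B are classic cold-response products. These genes had log2 amplitudes of 1.36 (SE 0.12, adjusted p = 2.72e-05) and 1.5 (SE 0.15, adjusted p = 5.82e-05) with peaks at CT 9.96 h and CT 10.3 h. The dehydrin genes COR47 (0.25, adjusted p = 0.00649) and LTI30 (0.29, adjusted p = 0.000326) peaked at CT 9.58 h and CT 9.48 h with much smaller swings. ZAT10, a stress-responsive zinc finger gene, had a log2 amplitude of 0.03 (adjusted p = 0.875). The median log2 amplitude of the 5 was 0.29, against 0.09 over all tested genes.

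All 4 rhythmic genes of the cold list peaked before COR27 and COR28. Because COR27 and COR28 were selected on their timing and amplitude, the differences are given as sizes with unadjusted 95% intervals and no test. COR27 peaked 2.88 h after COR15A (2.05 to 3.70 h), 2.49 h after COR15B (1.79 to 3.19 h) and 3.26 h after COR47 (1.5 to 5.02 h). COR28 peaked 2.90 h after COR15A (2.0 to 3.81 h), 2.52 h after COR15B (1.79 to 3.24 h) and 3.28 h after COR47 (1.64 to 4.93 h). The lag was thus of the same order for both genes. In log2 amplitude COR27 differed from COR15B by -0.40 (-0.65 to -0.14) and from COR15A by -0.26 (-0.52 to 0.01), while COR28 differed from COR15B by -0.58 (-0.85 to -0.31) and from COR15A by -0.44 (-0.71 to -0.17). Against COR47 the difference was 0.86 (0.62 to 1.09) for COR27 and 0.67 (0.50 to 0.84) for COR28.

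In the second cycle COR27 and COR28 were highest at 60 h, whereas COR15A (2553.9) and COR15B (1129.6) had their highest second-cycle values at 56 h, 1 harvest earlier. In the first cycle all 4 genes were highest at 36 h, with 3133.7 for COR15A and 1570.0 for COR15B. COR15A and COR15B are close copies next to each other, and how far their probe sets share signal was not tested.

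Of 25 clock genes listed, 1 was on a named probe set: GI, which encodes GIGANTEA, an evening protein of the clock and of photoperiodic flowering. The other listed clock genes were not examined. Since 8794 probe sets had no symbol, those genes may still be on the array. GI had a log2 amplitude of 0.61 (SE 0.07, adjusted p = 0.000268) and peaked at CT 10.5 h. Its highest second-cycle value was 612.9 at 56 h and its highest first-cycle value 702.4 at 32 h, in each case 1 harvest before the maxima of COR27 and COR28. COR27 peaked 2.32 h later than GI (1.28 to 3.36 h) with a log2 amplitude higher by 0.50 (0.28 to 0.71). COR28 peaked 2.35 h later (1.29 to 3.41 h) with a log2 amplitude higher by 0.31 (0.13 to 0.50).

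The listed light-signaling genes, of which 1 of 27 was named, gave HYH, the homolog of HY5. HYH ran nearly opposite to the pair (r = -0.78), with a log2 amplitude of 0.43 (adjusted p = 0.00680), a peak at CT 23.4 h, its highest value of 138.2 at 24 h and its lowest of 54.0 at 36 h. Of 13 photoperiodic flowering genes, 1 was named and tested, FD, which encodes a bZIP partner of the florigen FT. FD had a log2 amplitude of 0.04 (adjusted p = 0.946).

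The chromosome neighbors of the pair were looked at after the values had been seen. In the RefSeq gene order AT4G33985 lies next to COR28 and its log2 profile correlated with that of COR28 at 0.89, with a log2 amplitude of 0.19 (adjusted p = 0.0151) and a peak at CT 13.5 h. AT4G33960, 2 genes away on the other side, correlated at 0.66 (amplitude 0.17, adjusted p = 0.0312, peak at CT 12.5 h). Over 3226 pairs of adjacent tested genes the median correlation was 0.02, and 7 pairs (0.217%), that of COR28 and AT4G33985 included, correlated at least as highly. Whether the probe sets of these genes share signal was not tested. No neighbor of COR27 within 2 genes was tested.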

How the data were processed

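The deposited table holds linear intensity for 12 Affymetrix arrays, which the authors had scaled to a common level. The submitters' processing notes name MAS5 without a version, whereas dChip appears in the study's methods, and it is not known here which program made these values. The deposited scan records of the arrays hold other kinds of information, of which the scan day alone was taken, as a batch. The number of columns of sample values not used was 0.

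Probe sets were named through the platform annotation and the RefSeq gene table (TAIR10.1, names and gene order only). Intensities were floored at 1 and log2 was taken. The upper 69% of probe sets naming 1 nuclear gene (13415) were kept by mean log2 intensity, 1 per gene with the highest mean, leaving 9161 genes. The model of each gene had a linear trend plus sine and cosine terms of 24 h, and was run in limma 3.58.1 under R 4.3.3 with Benjamini-Hochberg adjustment over all tested genes at 0.05. Change between cycles and a 12-h component were tested by moderated F. The fit by cycle had a mean for each cycle in place of the trend, and the fit to the first scan day alone had no trend. Differences between genes have delta-method intervals with 8 degrees of freedom that use the covariance of residuals. Paired cycles were compared by the exact sign-flip permutation test (64 sign patterns). The fitting code was tested on simulated data. Figures were drawn with matplotlib 3.10.9.

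Named genes were both members, the 10 most and 5 least correlated with their mean standardized profile, and the tested genes of the lists (clock, light signaling, cold response, photoperiodic flowering). The members and lists were chosen with earlier results of these data known. Alternatives were another pseudocount (32), linear intensity, quantile normalization, no trend term, other filters, scan day as a block, the first scan day alone and leaving out each time. A motif search was not run, since no promoter or protein sequences were used here.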

Additional observations from a re-analysis of the deposited data

How the results depend on the processing

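Of 478 alternative values, 462 kept what was reported, and the exceptions follow. For tested values this meant the same direction and side of the threshold, for differences between genes, other than the peak difference of the pair, the same direction and the same side of 0 for the interval, for amplitudes, peaks and the peak difference of the pair a value within the reported 95% interval, and for counts a value within 1.5 times the reported one. The log2 amplitude of COR27 was 1.42 when taken from the peak-to-trough ratio of a fit on linear intensity, and that of COR28 was 0.71 with a pseudocount of 32. Fitted peaks stayed between CT 12.6 h and CT 13.0 h for COR27 and between CT 12.6 h and CT 13.1 h for COR28. With scan day as a block, which gives the 28 h array a term of its own, the COR28 trend was -0.02 (adjusted p = 0.994 in limma). The number of rhythmic genes was 618 with no intensity filter and 614 to 1070 when each time was left out, with the lowest count without the 56 h array. The difference COR28 minus COR27 in log2 amplitude ranged from -0.23 to -0.06 when each time was left out. COR28 minus GI in log2 amplitude was 0.15 (95% interval -0.01 to 0.31) with a pseudocount of 32. COR27 minus COR15A, whose interval reached 0, was -0.42 with a pseudocount of 32, -0.35 with scan day as a block and -0.33 to -0.18 when each time was left out, and the intervals of the first 2, and without 28, 36, 44 or 48 h, did not reach 0. The COR28 change of amplitude between cycles ranged from -0.19 to 0.07 when each time was left out, positive without 28 h (0.07) and without 64 h (0.03). The causes were not tested. The alternatives for differences between genes and for leaving out times in the comparison of cycles were chosen after seeing the data.

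With 1 array per harvest, plants, RNA preparation and array cannot be told apart. Trough values of both genes lay below the filter level, which was applied to means. No paired analysis was possible because the labels give no replicate numbers shared between harvests, that is, no block over replicates; the cycles were paired by circadian time only.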
